A study of Mus musculus with 12 samples.

Results

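RNA sequencing of primary mouse hepatocytes was used to describe 10 genes of sulfur amino acid metabolism, which are Mat1a, Mat2a, Gnmt, Ahcy, Bhmt, Cbs, Cth, Cdo1, Csad and Suox. They are 10 of the 22471 features listed for each library, and each matched 1 feature by its symbol. The genes were chosen by their measured values in these same libraries, so their levels and differences are a description, no p is given for them, and their selection fixes part of the pattern. The number of them past the threshold of the fit over all genes is printed beside the share of all genes past it, and supports nothing. The hepatocytes came from the livers of male C57BL/6J mice aged 6 weeks and were isolated with collagenase and a Percoll step. There were 4 groups of 3 libraries. Con received no benzbromarone and no oleic acid. BBR received 15 µM benzbromarone, a uric acid-lowering drug. ConOA received 0.2 mM oleic acid, a fatty acid with which hepatocytes are loaded with lipid, and BBROA received both agents at those doses. Exposure lasted 16 h, and the oleic acid was given bound to bovine serum albumin. Whether the cells without oleic acid received the albumin carrier is not stated in the sources used here, so oleic acid and its carrier cannot be told apart. The labels name the tissue as liver and do not say whether the 3 replicates of a group are separate mice or separate wells of 1 preparation.

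In the methionine cycle, methionine adenosyltransferases make S-adenosylmethionine (SAM), methyltransferases use it and leave S-adenosylhomocysteine, and the hydrolase AHCY splits that into homocysteine and adenosine. Homocysteine is either methylated back to methionine or passed through cystathionine to cysteine, the transsulfuration route. Cysteine is then built into glutathione or oxidized by the dioxygenase CDO1 to cysteine sulfinate, from which taurine and, through sulfite, sulfate are made. The liver is the main organ of this metabolism, and its adult hepatocytes are known for using MAT1A where most other tissues use MAT2A.

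Total counts ranged from 15485508 to 23668379 per library, and the 10 genes had between 121 counts (the lowest Suox library) and 15375 counts (the highest Ahcy library). All 12 pairs of replicates differed by more than counting noise. Levels are CPM, counts divided by library size and scaled between libraries by the trimmed mean of M values (TMM). Of the hepatocyte markers, Alb, Apoa1, Ttr, Hnf4a and Cyp2e1 together took 29423 to 30922 CPM in Con, 31105 to 33060 in BBR, 34483 to 36097 in ConOA and 35482 to 37636 in BBROA. The 5 Kupffer cell markers summed to 11.03 to 12.4 CPM in Con, 8.07 to 11.3 in BBR, 14.3 to 19.8 in ConOA and 15.9 to 22.6 in BBROA. The 5 sinusoidal endothelial markers summed to 33.4 to 35.1, 37.0 to 41.7, 34.1 to 43.0 and 38.8 to 41.5 CPM in the same order of groups. The 5 stellate cell markers summed to 18.4 to 20.9, 20.2 to 22.1, 20.7 to 25.3 and 19.5 to 21.5 CPM, with Lrat counted in 8 and Hand2 in 7 of 12 libraries. The 4 cholangiocyte markers summed to 37.4 to 43.7, 59.6 to 69.6, 49.8 to 68.9 and 48.4 to 57.5 CPM, with Krt7 counted in 6 libraries. Sox9 made up most of that sum in every group. Hepatocyte and Kupffer marker sums were thus higher in every library with oleic acid than in every library without it, but single markers did not all share this. The means of Clec4f, Cd5l and Vsig4 were 1.11, 5.98 and 1.15 CPM in Con and 0.442, 2.87 and 0.505 CPM in ConOA, while those of Adgre1 and Marco were 2.40 and 1.204 CPM in Con and 6.36 and 6.89 CPM in ConOA. The hepatocyte sum was mostly Alb, and the means of Hnf4a and Cyp2e1 were 151 and 117 CPM in Con and 140.1 and 102 CPM in ConOA. Hepatocyte, endothelial and cholangiocyte sums were also higher in every BBR library than in every Con library. Single markers again did not all share this. The mean of Hnf4a was 151 CPM in Con and 126 CPM in BBR, while those of Alb, Apoa1, Ttr and Cyp2e1 were higher in BBR. Endothelial Stab2, Lyve1 and Clec4g had means of 13.5, 2.05 and 0.552 CPM in Con and 12.9, 1.42 and 0.321 in BBR. Pecam1 and Kdr had means of 11.6 and 6.80 CPM in Con and 15.03 and 9.49 in BBR. The part of these markers in the differences with oleic acid and with benzbromarone was not tested. In such bulk samples, fewer cells of a type and less RNA per cell cannot be told apart.

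Mat1a (chromosome 14, 41105035 to 41124412, plus strand), Mat2a (chromosome 6, 72432799 to 72439558, minus strand) and Gnmt (chromosome 17, 46725664 to 46729168, minus strand) are protein-coding genes of the SAM-making and SAM-using steps, here in GRCm38 coordinates that span exons, introns and untranslated regions. Ahcy lies on chromosome 2, 155059310 to 155074497, Bhmt on chromosome 13, 93616675 to 93637961, and Cbs on chromosome 17, 31608894 to 31637238, all on the minus strand and all protein-coding. Cth lies on chromosome 3, 157894248 to 157925077, Csad on chromosome 15, 102176999 to 102204724, and Suox on chromosome 10, 128669894 to 128674073, again on the minus strand and protein-coding. Whether counting used the strand is not given in the sources used here, so reads of overlapping genes may not be separated. Genes on the opposite strand overlap Mat2a (Particl), Ahcy (Gm45609), Bhmt (Gm15622) and Csad (Zfp740), and Gm43314 overlaps Cth on the same strand. Gnmt overlaps Gm26904. Ahcy had a fractional count in 8 libraries and Bhmt in 1, so the values of these 2 genes are less certain there. The cause of the fractions was not tested.

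Of the 10 genes, 7 had an entry outside the chromosome of Cdo1 in the RefSeq promoter table of build GRCm38.p6. Printed here are the 250 bases before the start annotated in RefSeq, 5′ to 3′ along the gene, for 5 of them. That start can differ from the gene coordinates above. The windows of Bhmt, Suox, Cbs and, by a few bases, Mat2a lie partly within those coordinates. Ahcy and Suox were chosen because their levels differed in opposite directions between ConOA and Con. Mat2a, Bhmt and Cbs were chosen because all were lower in BBR than in Con. The regions are chr2:155074498-155074747 for Ahcy, chr10:128673919-128674168 for Suox, chr6:72439557-72439806 for Mat2a, chr13:93637759-93638008 for Bhmt and chr17:31637206-31637455 for Cbs, all read on the minus strand. Capitals mark a match to 1 of 4 motifs that were searched on both strands. These were the core of the amino acid response element, TGATGNAA, a stretch of the direct repeat bound by nuclear receptors such as PPARα and HNF4α, AGGTCANAG, the E-box CACGTG, and the TATA box TATAAA.
Ahcy: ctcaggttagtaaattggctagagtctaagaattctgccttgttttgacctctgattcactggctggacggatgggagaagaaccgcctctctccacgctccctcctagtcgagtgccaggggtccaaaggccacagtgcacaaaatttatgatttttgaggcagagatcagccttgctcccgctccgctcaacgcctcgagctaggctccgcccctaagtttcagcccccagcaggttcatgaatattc
Suox: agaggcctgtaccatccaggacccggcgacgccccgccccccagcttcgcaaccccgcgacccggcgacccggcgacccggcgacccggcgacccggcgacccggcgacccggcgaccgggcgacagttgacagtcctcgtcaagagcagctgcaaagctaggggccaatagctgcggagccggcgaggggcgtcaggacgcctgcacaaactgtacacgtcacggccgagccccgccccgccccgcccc
Mat2a: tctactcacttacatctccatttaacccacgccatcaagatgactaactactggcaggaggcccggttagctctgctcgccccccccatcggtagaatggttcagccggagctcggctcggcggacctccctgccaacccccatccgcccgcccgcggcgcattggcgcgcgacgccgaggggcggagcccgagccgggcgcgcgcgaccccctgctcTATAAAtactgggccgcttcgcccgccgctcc
Bhmt: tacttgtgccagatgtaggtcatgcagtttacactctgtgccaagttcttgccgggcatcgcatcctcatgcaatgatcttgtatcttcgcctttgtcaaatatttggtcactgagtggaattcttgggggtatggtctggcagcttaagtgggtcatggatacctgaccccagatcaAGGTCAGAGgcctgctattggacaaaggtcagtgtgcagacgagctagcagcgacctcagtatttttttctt
Cbs: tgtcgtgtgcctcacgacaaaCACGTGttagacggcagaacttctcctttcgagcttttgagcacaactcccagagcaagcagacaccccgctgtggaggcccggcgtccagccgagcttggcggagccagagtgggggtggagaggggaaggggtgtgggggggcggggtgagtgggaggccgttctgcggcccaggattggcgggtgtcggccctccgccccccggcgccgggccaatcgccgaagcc
Mat2a held TATAAA with its first base at -32 from the start, Bhmt held AGGTCANAG at -72, and Cbs held CACGTG at -229. Ahcy and Suox, and likewise Gnmt and both annotated starts of Csad, held none of the 4 motifs in this window. Among 32851 promoter windows of the same length, 12.4% held TATAAA, 1.75% AGGTCANAG, 6.02% CACGTG and 3.45% TGATGNAA. The Bhmt match lies within the gene coordinates given above. A match describes the letters only.

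The first pair of comparisons addressed oleic acid, ConOA against Con and, in cells that also had the drug, BBROA against BBR. The cysteine dioxygenase Cdo1, the cystathionine-cleaving enzyme Cth and the hydrolase Ahcy were higher in every library with oleic acid than in every library without it, about 9.21-fold, 2.64-fold and 2.28-fold without benzbromarone. Csad and Suox, which act after Cdo1, were 1.58-fold and 1.83-fold lower in ConOA than in Con. In the edgeR quasi-likelihood fit over all genes, 4 of the 10 genes were past an adjusted p of 0.05 as higher and 5 as lower in ConOA, beside 21.3% of all 12418 genes tested called higher and 21.5% called lower. In BBROA against BBR, 6 were called higher and 1 lower, beside 20.1% and 18.8% of 12416 genes. The median log2 difference of the 10 genes was -0.17 and 0.39 in these 2 comparisons, against -0.0060 and -0.0061 over all genes tested. All 10 genes passed the filter on low counts in every comparison. Since the genes were selected on these contrasts, nothing is read from their counts or medians.

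Cdo1 (GRCm38 chromosome 18, 46713193 to 46728395, minus strand, protein-coding) encodes the enzyme that commits cysteine to oxidation. Its level was 34.3, 40 and 32.1 CPM in the 3 Con libraries and 26.2, 27.5 and 25.1 CPM in the BBR libraries. With oleic acid it was 332, 323 and 318 CPM in ConOA and 319, 321 and 304 CPM in BBROA. The 6 libraries with oleic acid thus stood far above the 6 without it, with no overlap. The log2 difference, given here and below ± its SE, was 3.20 ± 0.0695 between ConOA and Con and 3.58 ± 0.0505 between BBROA and BBR, a ratio of 11.98-fold in the latter. With oleic acid, the drug was accompanied by a log2 difference of -0.05 ± 0.0454 in Cdo1, and the ConOA and BBROA libraries overlapped.

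Cth encodes cystathionine gamma-lyase, which releases cysteine from cystathionine. It lay at 43.01, 42.4 and 42.4 CPM in Con and 38.6, 38.4 and 42.8 CPM in BBR. In ConOA it was at 121, 108 and 107 CPM and in BBROA at 97.6, 97.9 and 96.2 CPM. All 6 libraries with oleic acid were above all 6 without it, and the 3 BBROA libraries lay below the 3 ConOA libraries. The log2 difference was 1.40 ± 0.0592 for ConOA against Con and 1.28 ± 0.0513 for BBROA against BBR. Cbs, the cystathionine synthase that catalyzes the preceding step, did not share this pattern. It was at 66.8, 75.6 and 63.9 CPM in Con, 52.01, 49.6 and 53.8 in ConOA, 52.5, 50.9 and 49.6 in BBR and 49.2, 59.5 and 53.7 in BBROA. The Con libraries were above all others, and the other 3 groups overlapped. The Cbs log2 difference was -0.40 ± 0.0655 for ConOA against Con and -0.42 ± 0.0615 for BBR against Con, and these 2 comparisons share the Con libraries.

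Ahcy was the most abundant of the 10 transcripts per length in every group. Its CPM values were 315, 326 and 324 in Con and 313, 342 and 328 in BBR, which overlapped, and 716, 731 and 739 in ConOA. In BBROA they were 756, 813 and 784, above each ConOA library, by a log2 difference of 0.10 ± 0.0455. The log2 difference with oleic acid was 1.19 ± 0.0475 without the drug and 1.26 ± 0.0464 with it.

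Csad encodes cysteine sulfinate decarboxylase, which leads to taurine. Its level was 11.5, 11.4 and 10.2 CPM in Con, 11.9, 11.3 and 10.6 in BBR, 7.13, 6.93 and 6.69 in ConOA and 7.84, 7.45 and 9.12 in BBROA. Every library with oleic acid was below every library without it, while Con and BBR overlapped. The log2 difference was -0.66 ± 0.103 for ConOA against Con and -0.48 ± 0.108 for BBROA against BBR. Suox encodes sulfite oxidase, which makes sulfate in mitochondria. It was at 15.01, 12.7 and 15 CPM in Con, 13.1, 10.9 and 12.9 in BBR, 6.85, 7.79 and 8.53 in ConOA and 12.1, 11.5 and 10.2 in BBROA. The ConOA libraries lay below those of each other group, and BBROA overlapped with BBR but not with Con. The log2 difference in Suox was -0.87 ± 0.108 for ConOA against Con and -0.13 ± 0.102 for BBROA against BBR.

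**Figure D1:**
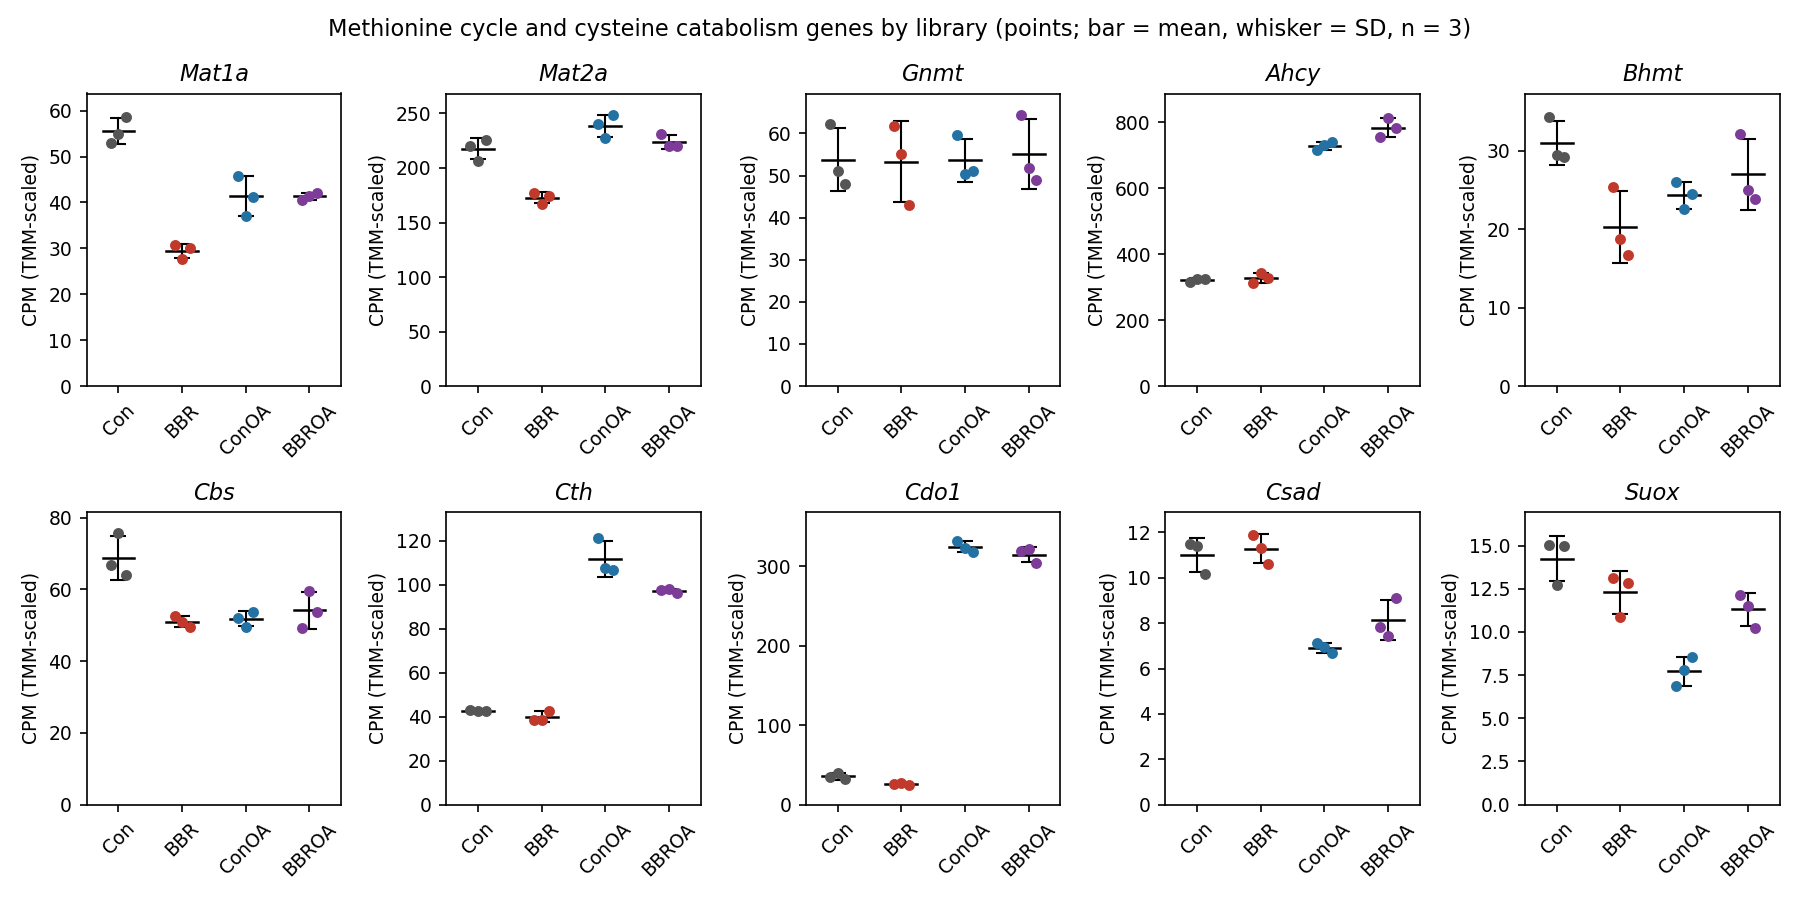
Level of each of the 10 genes in CPM (linear axis from 0, TMM-scaled) in the 12 libraries, with points for libraries, a bar for the group mean and whiskers for the SD (n = 3). Cdo1, Cth and Ahcy separate the libraries with oleic acid from those without, Csad shows the opposite order, and Gnmt has means of 53.8 ± 7.56, 53.3 ± 9.62, 53.7 ± 5.11 and 55.1 ± 8.29 CPM (SD) in Con, BBR, ConOA and BBROA.

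The second pair of comparisons addressed benzbromarone, BBR against Con without oleic acid and BBROA against ConOA with it. Without oleic acid, Mat1a, Bhmt, Cdo1, Cbs and Mat2a were lower in all 3 BBR libraries than in all 3 Con libraries, by 1.87-fold, 1.503-fold, 1.34-fold, 1.34-fold and 1.25-fold. These 5 genes were called lower and none of the 10 higher, beside 14.5% of 12555 genes called lower and 13.2% called higher, and nothing is read from the count. The cholangiocyte marker sum was 59.6 to 69.6 CPM in these BBR libraries and 37.4 to 43.7 CPM in Con. Most of that sum was Sox9, with means of 48.9 CPM in BBR and 32.3 CPM in Con. Krt19 and Epcam had means of 11.2 and 3.53 CPM in BBR and 6.91 and 1.86 CPM in Con. With oleic acid, only Suox was called, as higher, beside 1.95% of 12278 genes called higher and 2.63% called lower. The call of Suox was lost when ConOA replicate 2, BBROA replicate 1 or BBROA replicate 2 was left out, and Cth was called lower as well in some of the alternatives. The median log2 difference of the 10 genes was -0.26 without and 0.049 with oleic acid, against -0.00085 and -0.00031 over all genes.

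Mat1a, which encodes the SAM synthetase subunit of adult hepatocytes, was at 52.9, 54.9 and 58.6 CPM in Con and 30.7, 27.8 and 30.1 CPM in BBR. In ConOA it was at 45.7, 37.1 and 41.2 CPM and in BBROA at 40.6, 41.5 and 42 CPM. The BBR libraries were the lowest of all 12 and the Con libraries the highest, and BBROA lay within the range of ConOA. The log2 difference was -0.90 ± 0.0613 for BBR against Con and -0.00 ± 0.0714 for BBROA against ConOA. Mat2a, the gene of the form found in most other tissues, was at 219.8, 207 and 226 CPM in Con and 177, 167 and 174 in BBR. It was at 240.2, 228 and 248 CPM in ConOA and 231, 220.2 and 219.9 in BBROA. The BBR libraries were again below all others, with log2 differences of -0.32 ± 0.0481 for BBR against Con and -0.10 ± 0.0484 for BBROA against ConOA. The Mat2a libraries of ConOA lay above those of Con by 0.14 ± 0.0529 on the log2 scale, a call that held in 7 of 12 alternative settings.

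Bhmt encodes the betaine-dependent enzyme that returns homocysteine to methionine. Its CPM values were 34.3, 29.5 and 29.3 in Con, 25.5, 18.7 and 16.7 in BBR, 26.04, 22.6 and 24.5 in ConOA and 32.2, 25 and 23.9 in BBROA. BBR and ConOA lay below Con without overlap, while BBROA overlapped with each other group. The log2 difference was -0.59 ± 0.115 for BBR against Con, -0.34 ± 0.0804 for ConOA against Con and 0.40 ± 0.137 for BBROA against BBR, the last a call that held in 7 of 12 alternative settings. Gnmt, whose enzyme uses up surplus SAM by methylating glycine, was at 62.3, 51.1 and 47.9 CPM in Con, 61.9, 55.1 and 42.9 in BBR, 59.5, 50.4 and 50.97 in ConOA and 64.5, 51.8 and 48.9 in BBROA. All 4 groups overlapped, and the spread between replicates exceeded each difference between group means. In both Bhmt and Gnmt, replicate 1 was the highest library of its group in all 4 groups.

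**Figure D2:**
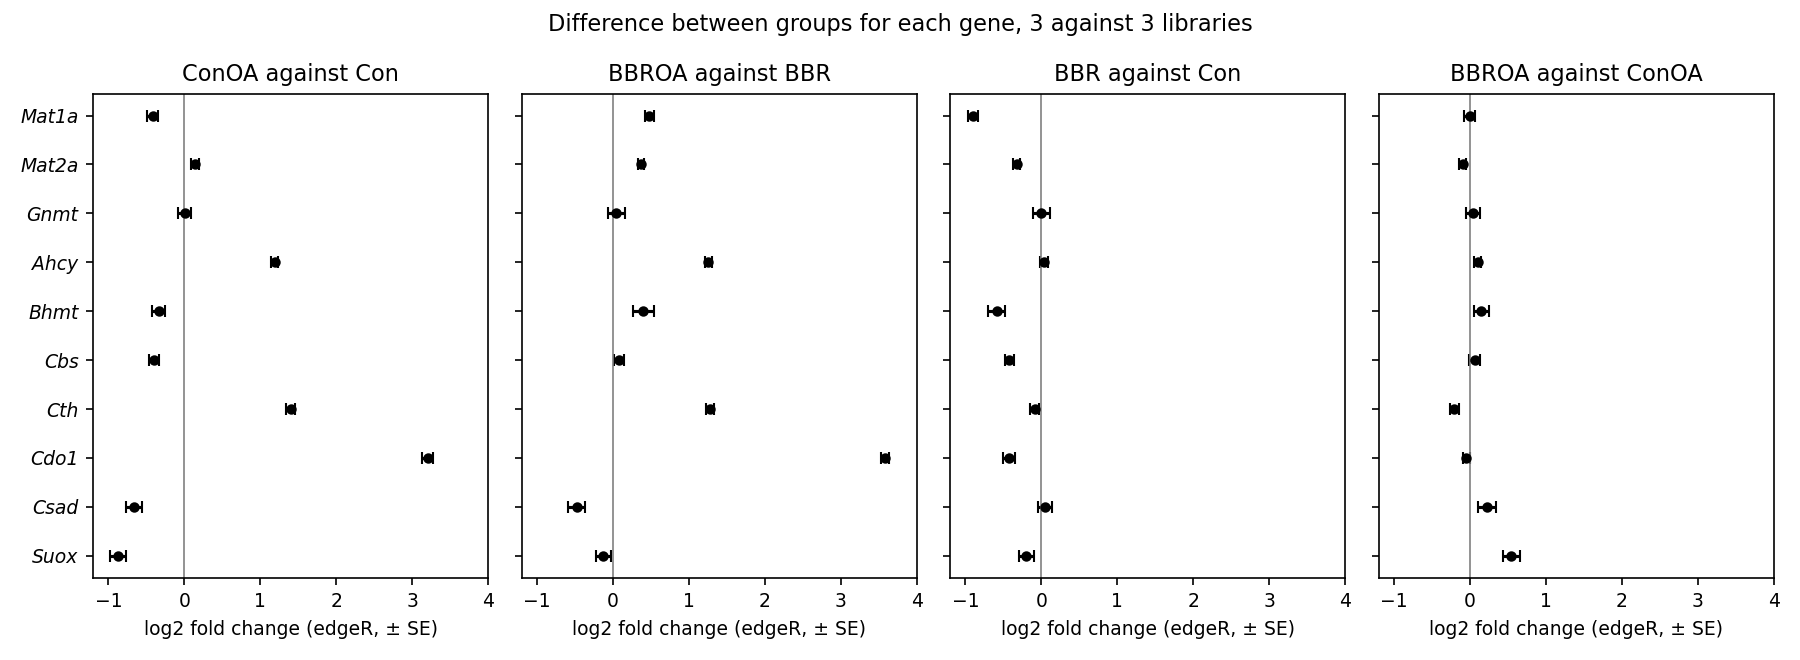
Log2 fold change of each of the 10 genes (points, with whiskers for the SE, from edgeR on 3 against 3 libraries) in the 4 comparisons. Cdo1 stands at 3.20 and 3.58 in the panels of oleic acid, Mat1a at -0.90 for BBR against Con and -0.00 for BBROA against ConOA.

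The difference between the BBR effect with oleic acid and that without it was then taken over all 12 libraries. For Mat1a this difference was 0.91 ± 0.0965 on the log2 scale (SE), for Suox 0.76 ± 0.151, for Bhmt 0.75 ± 0.179, for Cbs 0.49 ± 0.0981, for Cdo1 0.39 ± 0.0888 and for Mat2a 0.24 ± 0.0663. These 6 genes were called as positive and none as negative, beside 6.87% of 12742 genes called positive and 5.31% negative, and again nothing is read from the count, since the genes were selected on these libraries. In Mat1a, Mat2a, Bhmt, Cbs and Cdo1, the BBR libraries were below Con and the BBROA libraries overlapped with ConOA. Suox was different in that Con and BBR overlapped while BBROA was above ConOA. For Gnmt, Ahcy, Cth and Csad the difference was 0.05 ± 0.171, 0.08 ± 0.0628, -0.11 ± 0.0793 and 0.19 ± 0.142. The median over the 10 genes was 0.31, against 0.012 over all genes.

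Levels of different genes were set side by side as FPKM, which is scaled by transcript length. In Con, Ahcy came first with 128 ± 1.59 FPKM (SD, n = 3), followed by Mat2a with 83.7 ± 3.53, Gnmt with 52.6 ± 7.88 and Cbs with 29.6 ± 2.21. Cth, Cdo1 and Mat1a came next with 23.8 ± 0.394, 23.5 ± 2.75 and 20.9 ± 1.04 FPKM, where the libraries of neighbours overlapped. Bhmt stood at 12.6 ± 1.27 FPKM, and Suox and Csad closed the order with 5.77 ± 0.535 and 4.92 ± 0.369 FPKM, again overlapping. In BBR the order began in the same way with Ahcy at 130.1 ± 4.51, Mat2a at 64.96 ± 3.17 and Gnmt at 51.7 ± 9.503 FPKM. There Cth (22.1 ± 1.304) and Cbs (21.9 ± 1.2) overlapped, as did Mat1a (11.1 ± 1.004) with Bhmt (8.197 ± 1.88) and Csad (5 ± 0.3005) with Suox (4.94 ± 0.501 FPKM), and Cdo1 stood between the first and the second of these pairs at 17.2 ± 0.7902 FPKM.

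With oleic acid the order was different. In ConOA, Cdo1 was second with 210.2 ± 5.88 FPKM, after Ahcy with 284 ± 3.7 and before Mat2a with 89.4 ± 1.86. Cth followed with 61.1 ± 4.78 FPKM, above Gnmt (51.4 ± 5.08), Cbs (22.3 ± 1.28), Mat1a (15.6 ± 2.55) and Bhmt (9.69 ± 0.691). Suox and Csad were the lowest with 3.07 ± 0.317 and 3.03 ± 0.117 FPKM and overlapped. BBROA had the same order, with Ahcy at 306 ± 8.87, Cdo1 at 204 ± 5.86, Mat2a at 85 ± 3.01 and Cth at 53.1 ± 0.565 FPKM, the last of which overlapped with Gnmt at 52.8 ± 8.24. Cbs, Mat1a, Bhmt, Suox and Csad followed with 23.1 ± 2.15, 15.5 ± 0.663, 10.8 ± 1.85, 4.49 ± 0.397 and 3.56 ± 0.386 FPKM.

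Ratios within a library do not depend on its depth. The FPKM ratio of Mat2a to Mat1a was 4.15, 3.799 and 4.07 in the Con libraries and 5.68, 6.16 and 5.72 in the BBR libraries. It was 5.02, 6.702 and 5.77 in ConOA and 5.69, 5.59 and 5.21 in BBROA, so that Con was below every other library and Mat2a exceeded Mat1a in all 12. The ratio of Cth to Cbs, the later to the earlier enzyme of transsulfuration, had group means of 0.804 ± 0.0585 in Con, 1.01 ± 0.102 in BBR, 2.75 ± 0.24 in ConOA and 2.31 ± 0.227 in BBROA (SD, n = 3). The ratio of Cdo1 to Csad, the entry of cysteine oxidation to the taurine branch, was 4.42, 5.19 and 4.68 in Con and 3.26, 3.59 and 3.51 in BBR. In ConOA the ratio was 69, 69 and 70.4 and in BBROA 60.1, 63.8 and 49.4, with BBR below Con and BBROA below ConOA in every library. The ratio of Cdo1 to Cth was 0.987 ± 0.116 in Con, 0.783 ± 0.0781 in BBR, 3.45 ± 0.179 in ConOA and 3.84 ± 0.0761 in BBROA.

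**Figure D3:**
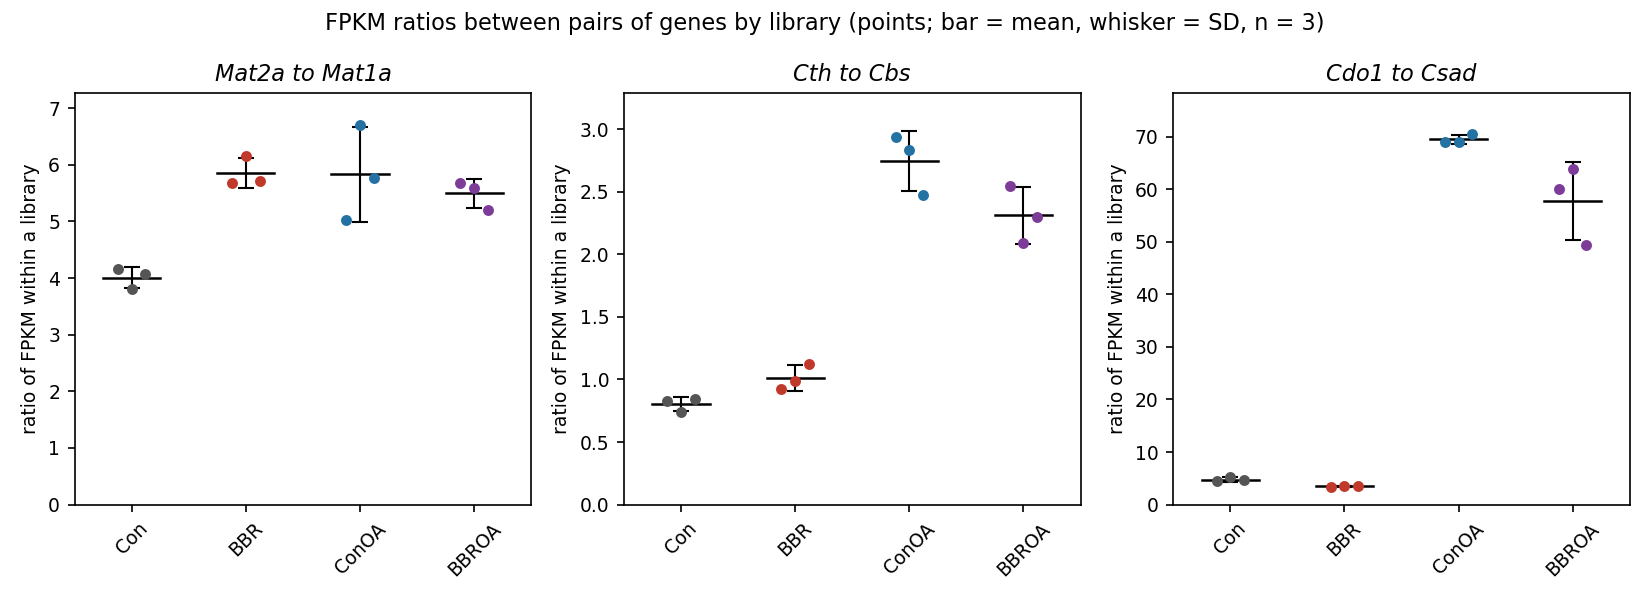
FPKM ratios within each library for 3 pairs of the genes (linear axes from 0), with points for libraries, a bar for the group mean and whiskers for the SD (n = 3). The ratio of Cdo1 to Csad was 4.76 ± 0.396 in Con and 69.5 ± 0.819 in ConOA, and the ratio of Mat2a to Mat1a was 4.01 ± 0.185 in Con and 5.85 ± 0.267 in BBR.

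Over the 12 libraries, log2 CPM of Cdo1 followed that of Cth with a Pearson r of 0.99 and that of Ahcy with 0.99, and Ahcy followed Cth with 0.98. Csad ran opposite to Cth (r = -0.95) and Cdo1 (r = -0.92). The libraries fall into 4 groups that these values follow, so r describes mainly the group means, and no p is given. Among the 12742 genes tested, those most like Cdo1 by this measure were Nab1 (r = 0.997), Gars (0.995) and Serpina3m (0.995). Those most like Cth were Psat1 (0.994), Asns (0.994) and Rars (0.992), and those most like Ahcy were Mafk (0.996), Efhd2 (0.993) and Akap12 (0.993).

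The rest of the pathway was examined with a textbook list of 73 other genes in 10 groups. Of these, 70 passed the filter on low counts and Ggt1, Gadl1 and Slc7a9 did not. The list was drawn up with earlier results of these data known. Its counts beside the shares of all genes are therefore a description, and its p-values are no independent test. In the 70 genes the edgeR quasi-likelihood test was used, with Benjamini-Hochberg adjustment over all genes tested. With BBR alone 29 of the 70 genes fell and 4 rose (median log2 fold change -0.17), beside 14.5% of all genes tested called lower and 13.2% called higher (median -0.00085). In BBROA against ConOA 4 fell and 1 rose (median -0.019), beside 2.63% and 1.95% of all genes (median -0.00031). With oleic acid alone 16 rose and 19 fell (median -0.058), close to the 21.3% and 21.5% of all genes called higher and lower (median -0.0060). In BBROA against BBR 27 rose and 10 fell (median 0.14), beside 20.1% and 18.8% of all genes (median -0.0061). The counts of single groups given next are to be read against these same shares, and the groups hold few genes. The count of 5 in BBROA against ConOA was 3 without BBROA replicate 3.

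**Figure D4:**
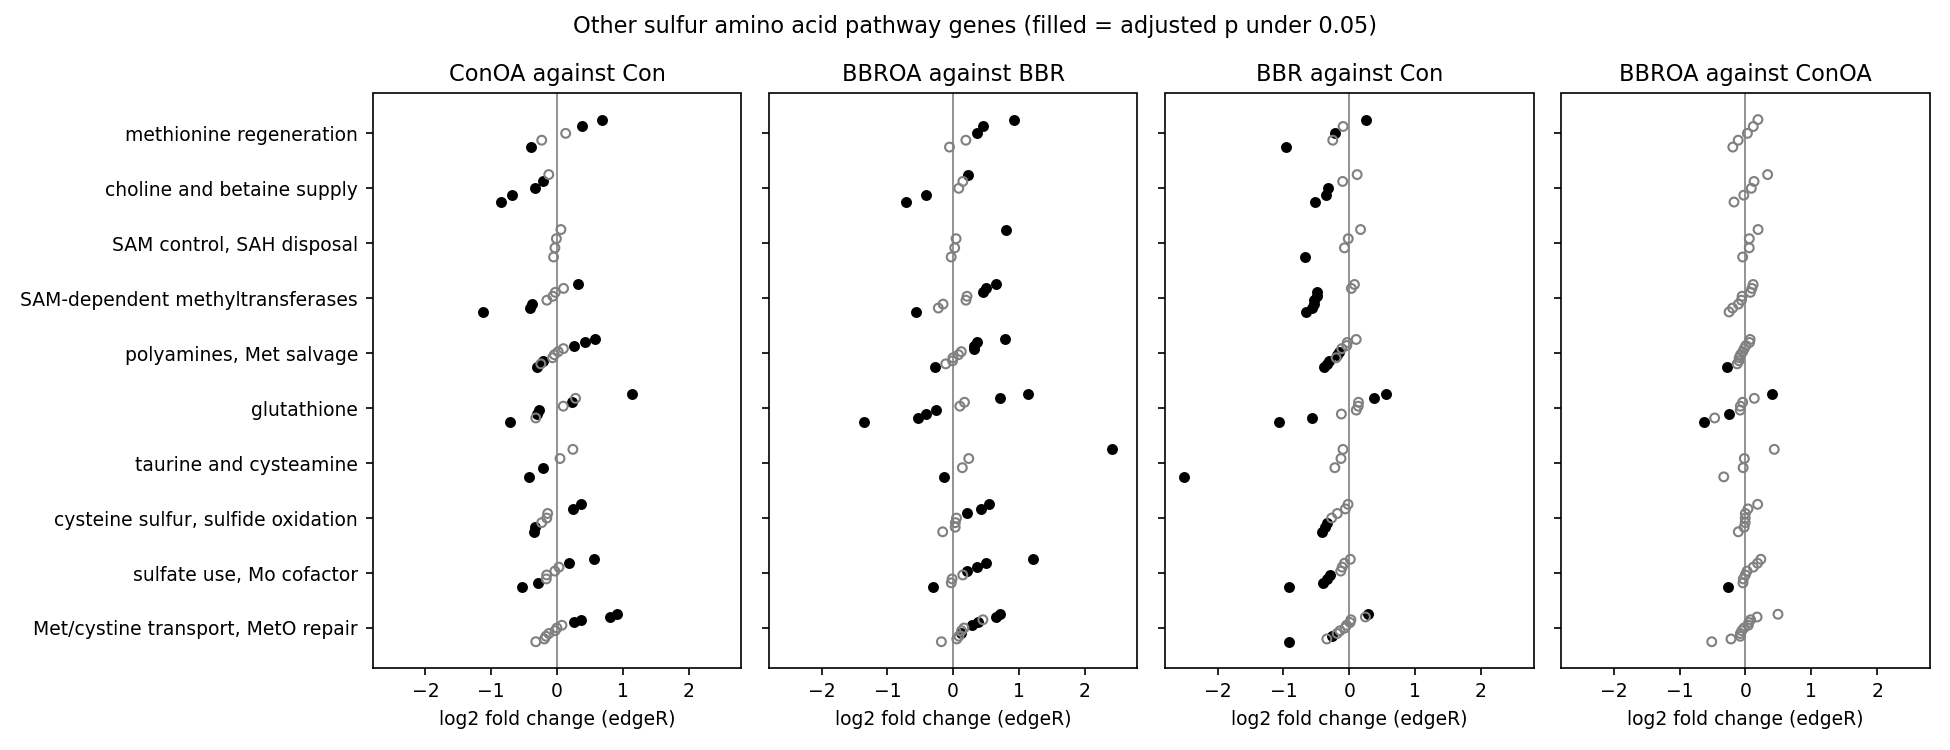
Log2 fold change of the 70 other pathway genes tested (1 point each, filled at an edgeR adjusted p under 0.05) by functional group in the 4 comparisons. Filled points number 35 for ConOA against Con, 37 for BBROA against BBR, 33 for BBR against Con and 5 for BBROA against ConOA.

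Glutathione genes moved in both directions with BBR alone, 2 up and 2 down of 8 tested. Gclc, the catalytic subunit of the rate-limiting enzyme of glutathione synthesis, was at 422, 479.8 and 465 CPM in Con and 243, 187 and 216 CPM in BBR, and at 345, 356 and 421 in ConOA and 218, 256 and 256 in BBROA. It fell without oleic acid (log2 fold change -1.07 ± 0.0747, SE, edgeR adjusted p = 5.13e-08) and with it (-0.63 ± 0.0751, edgeR adjusted p = 2.34e-04). The cystine importer Slc7a11 rose with BBR alone from 168 ± 8.87 to 217 ± 2.88 CPM (edgeR adjusted p = 1.97e-05). Ggct, an enzyme of glutathione breakdown, rose from 8.76 ± 0.651 to 13.03 ± 2.68 CPM (edgeR adjusted p = 0.00324). In BBROA these 2 genes were lower than in BBR, at 150.4 ± 10.98 CPM (log2 fold change -0.53, edgeR adjusted p = 1.61e-06) and 5.01 ± 1.53 CPM (-1.35, edgeR adjusted p = 4.81e-05). In BBROA against ConOA, where 1 gene of the group rose and 2 fell, Slc7a11 fell from 178 ± 8.24 CPM (-0.25 ± 0.0572, edgeR adjusted p = 0.0258), a call lost without ConOA replicate 2, BBROA replicate 1 or BBROA replicate 3.

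Of the same group, 2 genes rose and 3 fell with oleic acid alone, and 2 rose and 4 fell in BBROA against BBR, beside 21.3% of all genes called higher and 21.5% lower in the first of these comparisons and 20.1% and 18.8% in the second. Chac1, whose enzyme degrades glutathione, rose from 23.8, 18.1 and 21.3 CPM in Con to 48.8, 47.6 and 41.98 in ConOA (log2 fold change 1.14 ± 0.0894, edgeR adjusted p = 2.21e-07). It rose likewise from 22.5, 20.5 and 25.9 CPM in BBR to 54.2, 49.8 and 47.9 in BBROA (1.14 ± 0.0774, edgeR adjusted p = 6.27e-08). Oplah, the 5-oxoprolinase that returns glutamate from glutathione breakdown, fell with oleic acid from 59.5 ± 1.65 to 36.1 ± 1.77 CPM (edgeR adjusted p = 2.83e-07). It was higher in BBROA, at 47.9 ± 2.82 CPM, than in ConOA (log2 fold change 0.40 ± 0.0634, edgeR adjusted p = 0.00217).

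SAM-dependent methyltransferases of small molecules fell with BBR alone in 6 of 8 genes, with a median log2 fold change of -0.51, beside 14.5% of all genes called lower, and none of the 8 was called in BBROA against ConOA, where the median was -0.056. With oleic acid alone 1 rose and 3 fell, and in BBROA against BBR 3 rose and 1 fell. Hnmt, which methylates histamine, fell with oleic acid from 11.1, 8.26 and 11.1 CPM to 4.41, 4.49 and 4.95 CPM (log2 fold change -1.13 ± 0.139, edgeR adjusted p = 1.73e-05). The ConOA libraries of Hnmt lay below all Con libraries.

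Methionine regeneration and the supply of betaine adjoin Bhmt. Among the 5 genes of regeneration, 1 rose and 2 fell with BBR alone, none was called in BBROA against ConOA, 2 rose and 1 fell with oleic acid alone, and 3 rose in BBROA against BBR. With 13.2% and 14.5% of all genes called higher and lower with BBR alone, and 1.95% and 2.63% in BBROA against ConOA, counts in 5 genes single out nothing. Bhmt2, a relative of Bhmt that uses S-methylmethionine, fell with BBR from 8.08, 8.497 and 10.03 to 3.68, 5.28 and 4.84 CPM (log2 fold change -0.96 ± 0.145, edgeR adjusted p = 1.17e-04) and was at 8.45, 9.09 and 8.28 CPM in BBROA (0.92 ± 0.141 against BBR, edgeR adjusted p = 1.34e-04).

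Of the 5 genes of choline and betaine supply, 4 fell with oleic acid alone (median log2 fold change -0.33) and 3 with BBR alone (-0.33), beside 21.5% and 14.5% of all genes called lower. In BBROA against BBR 1 rose and 2 fell, and none was called in BBROA against ConOA. Chdh, the choline dehydrogenase that starts betaine synthesis, fell from 42.3, 47.1 and 53.2 CPM in Con to 24.4, 26.1 and 28.2 in ConOA (log2 fold change -0.85 ± 0.0842, edgeR adjusted p = 2.08e-06). The choline transporter Slc44a1 was at 116 ± 3.703 CPM in BBR and 70.8 ± 3.32 CPM in BBROA (log2 fold change -0.72, edgeR adjusted p = 4.97e-08). Without the drug it was likewise lower with oleic acid, at 108 ± 3.63 CPM in Con and 66.4 ± 2.76 in ConOA (-0.69, edgeR adjusted p = 1.62e-07).

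Sulfate use and molybdenum cofactor genes, which adjoin Suox, fell with BBR alone in 4 of 8, rose in 2 and fell in 2 with oleic acid alone, and rose in 4 and fell in 1 in BBROA against BBR. The counts with oleic acid alone are near the 21.3% and 21.5% of all genes called higher and lower, and 14.5% of all genes were called lower with BBR alone. Slc26a1, a sulfate transporter, was at 79.8, 83.3 and 86.2 CPM in Con, 45.02, 39.5 and 47.2 in BBR, 120.5, 125 and 122 in ConOA and 101, 106 and 98.5 in BBROA, so that no 2 groups overlapped. It fell with BBR alone (log2 fold change -0.91 ± 0.0611, edgeR adjusted p = 3.61e-08) and by less in BBROA against ConOA (-0.27 ± 0.0473, edgeR adjusted p = 0.00495), the single gene of this group called there. The difference between these 2 effects was 0.65 ± 0.0782 (edgeR adjusted p = 4.09e-05). It rose in BBROA against BBR (1.21 ± 0.0598, edgeR adjusted p = 2.66e-09).

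Of 11 genes of transport and methionine sulfoxide repair tested, 4 rose with oleic acid alone, 5 rose in BBROA against BBR and none fell in either, beside 21.3% and 20.1% of all genes called higher. With BBR alone 1 rose and 2 fell, and none was called in BBROA against ConOA. Slc7a5, a carrier of large neutral amino acids, rose with oleic acid from 25.5, 24.1 and 24.5 to 49.8, 44.5 and 34.8 CPM (log2 fold change 0.80 ± 0.101, edgeR adjusted p = 2.02e-05). Slc38a2, a carrier of small neutral amino acids, rose with BBR from 161 ± 6.07 to 196 ± 3.91 CPM (edgeR adjusted p = 1.94e-04).

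Among 10 genes of polyamine synthesis and methionine salvage, 5 fell with BBR alone, 3 rose and 2 fell with oleic acid alone, and 4 rose and 1 fell in BBROA against BBR. The counts with oleic acid alone are again close to the 21.3% and 21.5% of all genes, and with BBR alone 14.5% of all genes were called lower. Mtap, which starts the salvage of methionine from methylthioadenosine, fell in BBROA against ConOA from 62.99, 59.98 and 64.7 to 54.2, 51.5 and 49.6 CPM (log2 fold change -0.28 ± 0.05599, edgeR adjusted p = 0.0124), a call lost without BBROA replicate 2 or without BBROA replicate 3. The 7 genes of cysteine sulfur and sulfide oxidation fell in 3 with BBR alone, rose in 2 and fell in 2 with oleic acid alone, and rose in 3 in BBROA against BBR. Of 4 genes of SAM control and disposal of S-adenosylhomocysteine, 1 fell with BBR alone and 1 rose in BBROA against BBR, and none was called with oleic acid alone. That gene was in both cases Adk, the adenosine kinase that removes the adenosine AHCY releases, chosen after its values were seen, at 85.8 ± 4.99 CPM in Con, 53.2 ± 4.63 in BBR and 92.9 ± 2.88 in BBROA.

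Of 4 genes of taurine and cysteamine metabolism tested, 1 fell with BBR alone, 2 fell with oleic acid alone, and 1 rose and 1 fell in BBROA against BBR. Baat, the enzyme that joins bile acids to taurine and glycine, was named after its values were seen, since its level is under the 5 CPM required of named genes. It was at 3.91, 4.11 and 3.66 CPM in Con and 0.783, 0.322 and 0.861 in BBR, and at 5.32, 2.98 and 5.41 in ConOA and 3.59, 3.49 and 3.87 in BBROA. The log2 fold change with BBR alone was -2.50 ± 0.259 (edgeR adjusted p = 2.70e-06), and BBROA was above BBR by 2.42 ± 0.269 (edgeR adjusted p = 7.09e-06). ConOA and BBROA overlapped, and the difference between the 2 BBR effects was 2.18 ± 0.361 (edgeR adjusted p = 5.58e-04).

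Over the 70 genes, the difference between the BBR effects with and without oleic acid was positive in 23 and negative in 3, with a median of 0.24, beside 6.87% of all 12742 genes called positive and 5.31% negative and a median of 0.012. This count of 26 was 14 without ConOA replicate 2, 14 without BBROA replicate 3 and 16 without BBR replicate 2. By group, positive calls were made in 4 of 8 sulfate and cofactor genes, 3 of 8 methyltransferases, 3 of 5 choline and betaine genes, 3 of 8 glutathione genes and 3 of 11 transport and repair genes. They were also made in 2 of 4 taurine and cysteamine genes and 2 of 7 cysteine sulfur and sulfide genes. The rest were 1 of 5 regeneration genes, 1 of 4 SAM control genes and 1 of 10 polyamine and salvage genes. The 3 negative calls were 2 glutathione genes, Ggct and Slc7a11, and the transporter Slc38a2.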

How the data were processed

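Polyadenylated RNA was sequenced from 12 libraries, 3 in each of 4 groups taken from the sample titles. The authors deposited 1 table per library, with estimated counts and FPKM for 22471 features. The submitters' processing notes name the build mm10. The aligner, the counting program and its strand setting are not given in the sources used here. Of the features, 2862 had a fractional estimated count in at least 1 library, and these deposited counts were rounded to whole numbers. The deposited FPKM values, already scaled by length and depth, were used untested for the order of genes and for ratios.

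The 10 genes, the pathway lists and the marker lists were chosen with earlier results of these data known. Each comparison was fitted on its 6 libraries with edgeR 4.0.16 (R 4.3.3), with filterByExpr at a minimum count of 10, TMM scaling and the two-sided quasi-likelihood F test, adjusted by Benjamini-Hochberg over all genes tested and called at an adjusted p under 0.05. The interaction of BBR and OA used all 12 libraries. SEs were derived from the F statistic. Other pathway genes were named where they were among the 3 highest or 3 lowest called log2 fold changes of a comparison that also reached a mean of 5 CPM in either group and had no overlap between groups. 1 gene that met this rule is not reported here. Likeness was Pearson's r of log2(CPM + 0.5), printed for the 3 genes with the widest span of group means. The hepatocyte marker Serpina1a matched more than 1 feature and was left out. Coordinates come from GENCODE M21 (GRCm38) and promoters from RefSeq (GRCm38.p6).

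Replicates may be technical, so p-values measure the spread between these libraries. Library totals put 1 count at 0.0423 to 0.0646 CPM, a limit that covers counting error only. Alternatives were other scalings, DESeq2 1.42.0, no filter, a replicate block, one fit over all libraries, and leaving out each library.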

Additional observations from a re-analysis of the deposited data

Results flagged for a closer look

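In the fit over 12 libraries, the difference between the BBR effects with and without oleic acid was called positive in 6.87% and negative in 5.31% of 12742 genes. Beside these shares it was called in 6 of the 10 genes and in 26 of the 70 other pathway genes tested. Given here are those 6 and the 7 of the others that the naming rule had chosen in a comparison of 2 groups. For the 6 genes chosen on these libraries the difference is a description: 0.91 on the log2 scale for Mat1a, 0.24 for Mat2a, 0.75 for Bhmt, 0.49 for Cbs, 0.39 for Cdo1 and 0.76 for Suox. The call of Mat2a held in 10 of 17 alternative settings.

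Among the other pathway genes, the difference was tested with edgeR's quasi-likelihood F test. It was 1.16 for Bhmt2 (edgeR adjusted p = 0.00142), 0.65 for Slc26a1 (edgeR adjusted p = 4.09e-05), 0.46 for Gclc (edgeR adjusted p = 0.0203) and 0.31 for Oplah (edgeR adjusted p = 0.0242). It was negative in Ggct with -1.02 (edgeR adjusted p = 0.016), in Slc7a11 with -0.62 (edgeR adjusted p = 5.26e-05) and in Slc38a2 with -0.23 (edgeR adjusted p = 0.0381). The calls of Gclc, Oplah, Ggct and Slc38a2 were lost when single libraries were left out, among them ConOA replicate 2 for Gclc, Ggct and Slc38a2 and BBROA replicate 3 for Gclc, Oplah and Slc38a2.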

How the results depend on the processing

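Signs were checked for the 10 genes and for the other pathway genes chosen by the naming rule, which leaves out Baat and Adk. Among those checked, no log2 fold change past its threshold changed sign under any alternative that was run. Of the 10 genes, 1 was called in BBROA against ConOA, and 2 were called with upper quartile scaling, DESeq2, no expression filter, one fit over 12 libraries or the replicate block, the second being Cth. Leaving out 1 library gave 0 to 2. In the other comparisons it gave 5 to 5 for BBR against Con, 8 to 9 for ConOA against Con, 6 to 7 for BBROA against BBR and 5 to 6 for the interaction. Each count is to be read beside the share of all genes called that was given above for its comparison. Of the other pathway genes, 5 were called in BBROA against ConOA, and 3 to 7 with 1 library left out (3 without BBROA replicate 3). The interaction gave 26, and 14 to 27 with 1 library left out (14 without ConOA replicate 2 or BBROA replicate 3, 16 without BBR replicate 2). These ranges were 29 to 33 for BBR against Con, 31 to 37 for ConOA against Con and 33 to 35 for BBROA against BBR. The causes were not tested. Scaling by upper quartiles moved the median of all genes in ConOA against Con from -0.0060 to -0.052. Genes at a few CPM, such as Baat, Hnmt and Bhmt2, are limited by depth.

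The labels do not state that replicate numbers shared between groups pair the libraries, so the main fits did not pair them. The data point to something shared by number, since in 24 of 24 checks a library correlated best with its own number. These checks are not independent, since each pair of groups was read in both directions and the comparisons share libraries. Correlations of same-numbered deviations ranged from 0.0535 to 0.183, and 6 of 12 exceeded 0.1. The SEs and p-values printed here come from fits that leave this out. With the replicate block, 9 other pathway genes were called in BBROA against ConOA in place of 5, with 4 higher and 5 lower, and 2 of the 10 genes in place of 1.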
